A study of Arabidopsis thaliana with 9 samples.

Results

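The cell wall genes described here are 42 Arabidopsis thaliana genes, taken by gene identifier: 26 expansins and expansin-like genes (19 EXPA, 3 EXPB, 3 EXLA and 1 EXLB) and 16 xyloglucan endotransglucosylase/hydrolase (XTH) genes. All 42 were among the 32823 genes with values. They were measured by mRNA sequencing in 9 libraries of whole seedlings that were 2 weeks old, grown with 16 h light at 22 °C and 8 h dark at 18 °C and given no treatment. Each of 3 genotypes gave 3 libraries: Col-0, which is the wild-type accession, and the mutants cyp71-3 and se-1. CYP71 encodes a cyclophilin, a peptidyl-prolyl isomerase, and SE (SERRATE) a zinc-finger protein needed for microRNA processing. The study asked how the loss of CYP71 alters microRNAs and their target genes. Which part of either gene the alleles alter is not given in the sources used here.

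Expansins loosen the walls of growing cells without cutting polymers, by releasing contacts between cellulose and xyloglucan, and they act best in an acidic wall. XTH enzymes cut xyloglucan, the main hemicellulose that coats cellulose in these walls, and either rejoin the cut chain to another chain or release it by hydrolysis. Both families are large, their members are used in different organs and cell types, and many respond to auxin, brassinosteroid or mechanical stimulation.

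Levels are given in FPKM (fragments per kilobase of transcript, scaled to the library total), which is a level per length, so genes can be compared with each other. Differences are log2 fold changes of FPKM + 1 with their standard error (SE), which understate the change of low genes. A gene was called when its limma adjusted p, over all 19180 genes with a mean of at least 1 FPKM, was under 0.05. Library sums were 825338 to 937136 FPKM, the steps between low values put the deepest library at 1.59 times the shallowest, and correlations of log2 values were 0.992 to 0.995 within a genotype and 0.973 to 0.985 between genotypes. CYP71 was at 17.9 ± 1.13 FPKM (SD, n = 3) in Col-0, 4.09 ± 0.36 in cyp71-3 seedlings and 17.8 ± 0.65 in se-1, and SE was at 31.7 ± 1.37, 33.1 ± 0.22 and 27.2 ± 1.73. The labels do not say that libraries of a genotype came from separate plants, so the p-values measure the spread between these libraries.

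In each mutant, more of these wall genes were higher than lower. Of the 42 genes, 38 passed the filter on low values. In cyp71-3 against Col-0, 29 of the 38 rose, 5 fell and 4 were not called. In that comparison 63.3% of all genes tested were called, 30.6% higher and 32.7% lower. In se-1 against Col-0, 25 rose, 5 fell and 8 were not called, where 50.2% of all genes tested were called, 25.1% higher and 25.1% lower. The median difference of the 38 genes was 0.72 in cyp71-3 and 0.42 in se-1 on the log2 scale, and that of all genes tested was -0.009 and 0.004. Rises of at least 1 on the log2 scale were found for 11 of the genes in cyp71-3 and 8 in se-1, against 3.53% and 2.01% of all genes tested. Falls of that size were found for 0 genes in cyp71-3 and 1, EXPA8, in se-1, against 3.06% and 1.51%. These counts and medians describe the genes that passed the filter. The wall genes were chosen with earlier results of these data known, so the values of all genes are a background and no test. The counts and medians include XTH33, which passed the filter through the mutants, where it is high.

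**Figure D1:**
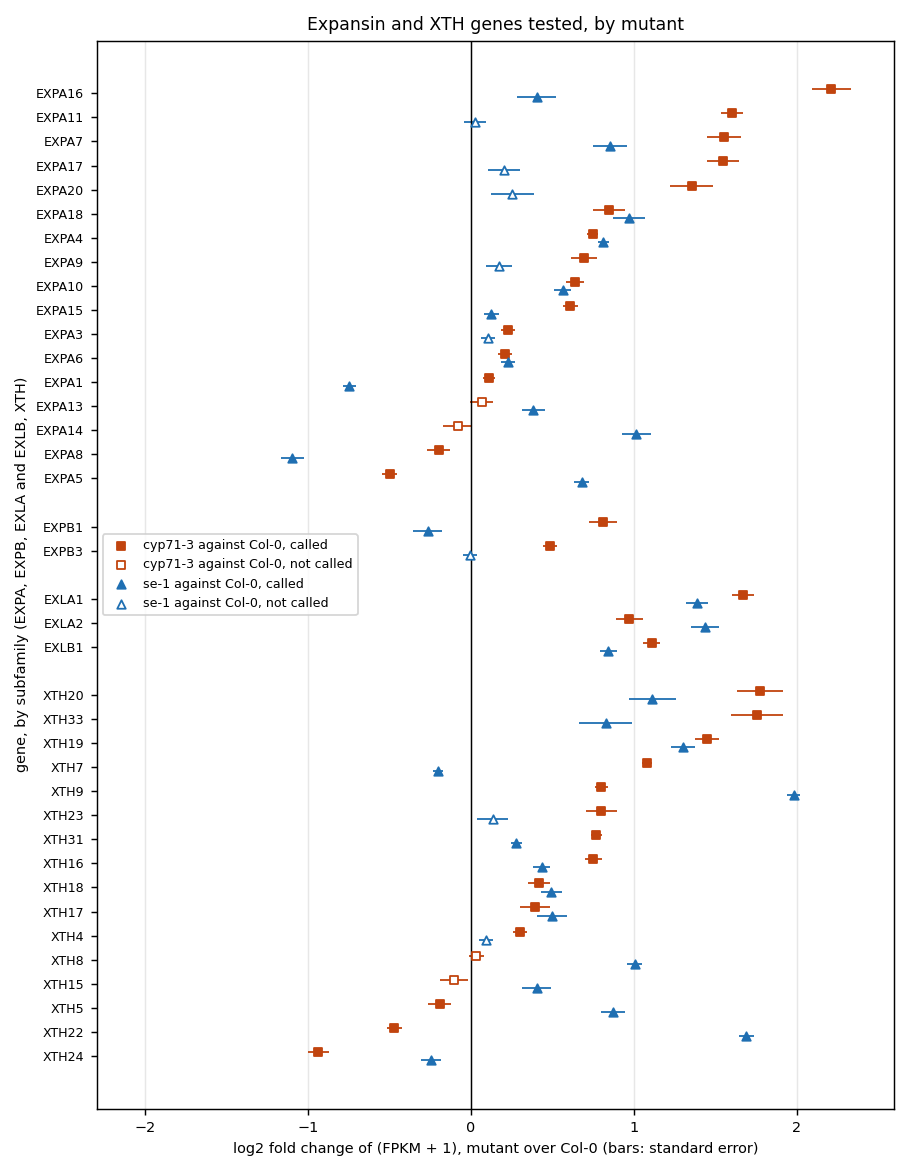
Log2 fold change of FPKM + 1 of each of the 38 genes tested, in cyp71-3 (squares) and se-1 (triangles) over Col-0, with bars for the standard error and open symbols for genes not called. Most symbols lie right of 0; XTH24 and EXPA8 lie left of 0 in both mutants, and EXPA5, XTH5 and XTH22 lie left in cyp71-3 and right in se-1.

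The summed level of all 42 genes was 1331 ± 28.1 FPKM (SD, n = 3) in Col-0, 1878 ± 9.82 in cyp71-3 seedlings and 1750 ± 30.9 in se-1. Subfamilies differed in which mutant was higher. The α-expansins (EXPA) summed to 528 ± 13.3 FPKM in Col-0, 691 ± 8.77 in cyp71-3 seedlings and 566 ± 3.32 in se-1. Sums of the expansin-like genes (EXLA and EXLB) were 24.7 ± 1.73, 62.1 ± 0.84 and 58.3 ± 1.26 FPKM. The β-expansin (EXPB) sum was 64.4 ± 3.42 in Col-0, 94.7 ± 1.48 in cyp71-3 seedlings and 62.4 ± 2.06 in se-1, with se-1 inside the Col-0 range. XTH sums were 713 ± 13.5, 1030.4 ± 4.10 and 1064 ± 29.5 FPKM, and both mutants lay above Col-0 in every library. In whole seedlings, a larger share of cells of a type and more RNA per cell cannot be told apart.

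**Figure D2:**
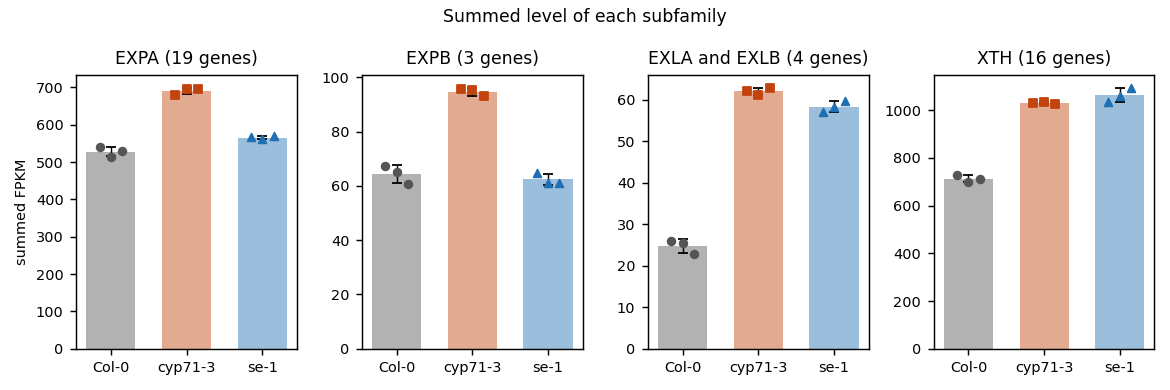
Summed FPKM of the EXPA, EXPB, EXLA with EXLB, and XTH genes in each library (points), with the mean (bar) and SD of 3 libraries (error bar) per genotype. The EXPB sum is highest in cyp71-3, at 94.7 against 64.4 in Col-0 and 62.4 in se-1; the XTH sum is above Col-0 in both mutants.

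Among the α-expansins, 13 of 17 tested rose and 2 fell in cyp71-3, and 10 rose and 2 fell in se-1. The shares called were 88.2% and 70.6%, where 63.3% and 50.2% of all genes tested were called, 30.6% and 25.1% higher. The largest rise in cyp71-3 was that of EXPA16 (AT3G55500). Its level was 1.25, 1.13 and 1.29 FPKM in the 3 Col-0 libraries, 10.1, 8.60 and 9.29 in cyp71-3, and 1.45, 2.10 and 2.35 in se-1. Every cyp71-3 library was far above the other 6, while se-1 lay just above Col-0. The ratio of means was 7.62 in cyp71-3, with a log2 difference of 2.21 ± 0.12 (limma adjusted p = 3.36e-08). In se-1 the difference was 0.40 ± 0.12 (limma adjusted p = 0.015). Without se-1 replicate 2 or without se-1 replicate 3 the se-1 call was lost, at limma adjusted p = 0.051 and 0.059.

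EXPA11 (AT1G20190) was high in cyp71-3 alone. It was at 10.1, 10.1 and 10.8 FPKM in Col-0, 32.6, 34.0 and 33.7 in cyp71-3 and 11.8, 10.2 and 9.67 in se-1. The se-1 and Col-0 libraries overlapped, and cyp71-3 was 3.24 times Col-0. The difference was 1.60 ± 0.07 in cyp71-3 (limma adjusted p = 4.09e-09) and 0.03 ± 0.07 in se-1 (limma adjusted p = 0.768). EXPA17 (AT4G01630), an expansin of the tissue around emerging lateral roots, was at 2.15, 2.09 and 2.71 FPKM in Col-0, 8.26, 8.09 and 9.65 in cyp71-3 and 2.92, 2.80 and 2.68 in se-1. It too was high in the 3 cyp71-3 libraries, and se-1 overlapped Col-0. Its ratio of cyp71-3 to Col-0 means was 3.74, and its log2 difference was 1.54 ± 0.10 (limma adjusted p = 1.23e-07). In se-1 its difference of 0.20 ± 0.10 was not called, but it was called without Col-0 replicate 3 (0.28, limma adjusted p = 0.0381).

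Rises in cyp71-3 without a call in se-1 were also found for EXPA3 (AT2G37640), EXPA9 (AT5G02260) and EXPA20 (AT4G38210). Their cyp71-3 means were 1.18, 1.64 and 3.00 times those of Col-0, and their se-1 differences were 0.10 ± 0.04, 0.17 ± 0.08 and 0.25 ± 0.13. EXPA20 overlaps a gene on the opposite strand, AT4G38215, over 1061 bases. Strandedness is not given in the sources used here, so reads of the pair cannot be told apart, but AT4G38215 was listed at no more than 1.63 FPKM in any library. In se-1, EXPA3 was called with quantile normalization (limma adjusted p = 0.0338) and without Col-0 replicate 3 (0.0416), EXPA9 with library weights (0.0087) and without se-1 replicate 3 (0.00281, at 0.28 on the log2 scale), and EXPA20 without Col-0 replicate 1 (0.048). A missed call in se-1 does not show that the mutants differ, so the direct comparison of the mutants is given further on.

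The root hair expansins EXPA7 (AT1G12560) and EXPA18 (AT1G62980), which loosen the wall where hairs emerge from root epidermal cells, rose in both mutants. Each has a root hair-specific element (RHE), the motif bound by the RHD6 and RSL4 class of basic helix-loop-helix regulators, within the 250 bases before its annotated start. Those 250 bases are shown because, of the 42 genes, these were the 2 with a match on either strand, which is 4.76%, against 0.754% of all 27443 such windows. They are on the plus strand of the RefSeq TAIR10.1 assembly, at chr1:4276255-4276504 for EXPA7 and chr1:23331313-23331562 for EXPA18, written 5′ to 3′ with the RHE match in capitals.
EXPA7: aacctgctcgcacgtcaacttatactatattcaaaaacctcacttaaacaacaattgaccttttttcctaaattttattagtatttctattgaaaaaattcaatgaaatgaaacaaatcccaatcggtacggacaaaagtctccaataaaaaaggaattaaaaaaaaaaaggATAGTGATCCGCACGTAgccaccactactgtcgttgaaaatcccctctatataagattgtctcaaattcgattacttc
EXPA18: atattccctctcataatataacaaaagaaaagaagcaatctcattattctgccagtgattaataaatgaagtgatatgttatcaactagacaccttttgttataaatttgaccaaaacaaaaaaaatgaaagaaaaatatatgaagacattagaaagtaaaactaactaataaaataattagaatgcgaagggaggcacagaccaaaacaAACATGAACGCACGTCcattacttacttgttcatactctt
The match lies at -78 to -62 from the annotated start of EXPA7 and at -40 to -25 from that of EXPA18. A match of letters is a description and does not show that a factor binds there. A motif named for root hair genes is not independent of root hair expansins, so the shares of 4.76% and 0.754% are no test.

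EXPA7 was at 3.19, 3.10 and 3.86 FPKM in Col-0, 11.9, 11.8 and 11.8 in cyp71-3 and 5.70, 7.27 and 7.89 in se-1. The 3 genotypes did not overlap, with cyp71-3 highest and se-1 between. Its difference from Col-0 was 1.56 ± 0.10 in cyp71-3 (limma adjusted p = 2.02e-07) and 0.85 ± 0.10 in se-1 (limma adjusted p = 4.48e-05). EXPA18 was at 2.34 ± 0.25 FPKM (SD, n = 3) in Col-0, 5.02 ± 0.64 in cyp71-3 seedlings and 5.53 ± 0.24 in se-1, with both mutants above Col-0 and overlapping each other. Both genes overlap the end of a neighbour on the opposite strand, by 23 and 46 bases.

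Some root hair markers rose with these 2 genes, and others were not called. The summed level of 8 root hair marker genes was 17.5 to 17.7 FPKM in Col-0, 30.6 to 33.3 in cyp71-3 seedlings and 34.2 to 37.3 in se-1. Of the 8, 4 rose in cyp71-3 (COBL9, PRP1, PRP3 and LRX1) and 5 in se-1 (these and RSL4), none was called lower in either, and none was at 0 in every library. That is 50% and 62.5% called, where 63.3% and 50.2% of all genes tested were called. The wall protein genes PRP1 and PRP3 had the largest differences, 1.46 and 1.03 in cyp71-3 and 1.77 and 1.34 in se-1. PRP3 was at 6.13, 13.5 and 17.0 FPKM in Col-0, cyp71-3 and se-1, and PRP1 at 1.03, 4.59 and 5.91. The higher sums in the mutants rest largely on PRP1 and PRP3. RHD6 itself, the regulator that starts hair formation, was at 1.65 ± 0.25, 1.96 ± 0.28 and 1.62 ± 0.24 FPKM and was not called. RSL2 and RHD2 were not called in either mutant, and RSL4 was not called in cyp71-3. Of the 205 other genes with an RHE match, 128 were tested, of which 43 were called higher and 46 lower in cyp71-3, and 43 higher and 30 lower in se-1. Of all genes tested, 30.6% were called higher and 32.7% lower in cyp71-3, and 25.1% higher and 25.1% lower in se-1. The median differences of the 128 genes were -0.029 and 0.033, near those of all genes tested. The part of root hair cells in the rise of EXPA7 and EXPA18 was not tested.

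Of the highly expressed α-expansins, EXPA1 and EXPA6 had the highest means over all libraries. EXPA1 (AT1G69530), found in leaves and guard cells among other tissues, was at 169.7, 156 and 163 FPKM in Col-0, 173, 179 and 175 in cyp71-3 and 99.1, 97.0 and 94.2 in se-1. All se-1 libraries were low, and the cyp71-3 libraries lay slightly above Col-0. The fall in se-1 was 0.75 ± 0.04 on the log2 scale (limma adjusted p = 4.33e-08), at 0.593 times Col-0. The rise in cyp71-3 was 0.11 ± 0.04 (limma adjusted p = 0.0259). That call was lost without Col-0 replicate 2 (adjusted p = 0.113 with limma), Col-0 replicate 3 (0.0597), cyp71-3 replicate 2 (0.0907) or cyp71-3 replicate 3 (0.0573), and with no intensity trend (0.0721). With quantile normalization the difference was 0.25 (limma adjusted p = 0.000166).

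Most of the guard cell markers were lower in both mutants beside this gene. The 5 guard cell markers summed to 53.8 to 61.0 FPKM in Col-0, 36.7 to 39.1 in cyp71-3 seedlings and 42.1 to 44.9 in se-1, and none was at 0 in every library. The same 4 of 5 fell in each mutant, which is 80% called, where 63.3% and 50.2% of all genes tested were called. Among them, FAMA, the regulator of guard cell fate, fell by 0.86 in cyp71-3 and 0.60 in se-1. The kinase gene HT1 fell by 0.75 and 0.49. The remaining marker, SLAC1, was at 1.99, 2.66 and 1.69 FPKM in Col-0, cyp71-3 and se-1. Its differences of 0.30 in cyp71-3 and -0.15 in se-1 were not called. EXPA1 itself was lower in se-1 and slightly higher in cyp71-3. The part of guard cells in the level of EXPA1 was not tested.

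EXPA6 (AT2G28950) was at 78.3, 72.7 and 75.2 FPKM in Col-0, 85.7, 86.1 and 89.6 in cyp71-3 and 90.3, 83.9 and 91.3 in se-1. Both mutants lay above Col-0 and overlapped each other, with differences of 0.21 ± 0.04 (limma adjusted p = 0.00146) and 0.23 ± 0.04 (0.00109). EXPA4 (AT2G39700) and EXPA10 (AT1G26770), the latter known for its role in leaf and pedicel growth, rose in both by similar amounts. Their means were 1.69 and 1.57 times Col-0 in cyp71-3, and 1.77 and 1.49 times in se-1. EXPA15 (AT2G03090) rose by 0.61 ± 0.05 in cyp71-3 and by 0.12 ± 0.05 in se-1 (limma adjusted p = 0.0429). Leaving out any library but se-1 replicate 3 ended that se-1 call, with limma adjusted p between 0.0501 and 0.164, as did a fit with no intensity trend (0.0679) or of the se-1 and Col-0 libraries alone (0.0711).

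EXPA5 (AT3G29030), linked to brassinosteroid-dependent growth, moved in opposite directions. Its level was 29.2, 28.1 and 30.9 FPKM in Col-0, 21.0, 21.1 and 19.4 in cyp71-3 and 48.1, 47.0 and 47.9 in se-1. The 3 genotypes were fully separated. The difference was -0.50 ± 0.05 in cyp71-3 (limma adjusted p = 3.99e-06) and 0.68 ± 0.05 in se-1 (6.48e-07). EXPA8 (AT2G40610) was at 36.1, 34.8 and 35.6 FPKM in Col-0, 31.3, 31.6 and 29.6 in cyp71-3 and 14.5, 15.6 and 18.3 in se-1. It was lowest in se-1, at 0.454 times Col-0, with a difference of -1.10 ± 0.07 (limma adjusted p = 2.81e-07). The fall in cyp71-3 was 0.20 ± 0.07 on the log2 scale (limma adjusted p = 0.029). Without Col-0 replicate 1, Col-0 replicate 3, cyp71-3 replicate 1 or cyp71-3 replicate 3 the limma adjusted p was 0.0768, 0.0688, 0.0506 and 0.0971, and with quantile normalization it was 0.214, at a difference of -0.11.

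EXPA13 (AT3G03220) and EXPA14 (AT5G56320), the latter an expansin of emerging lateral roots, rose in se-1 and were not called in cyp71-3. EXPA14 was at 9.11, 7.18 and 8.57 FPKM in Col-0, 7.59, 8.65 and 7.03 in cyp71-3 and 18.1, 17.5 and 17.4 in se-1. Col-0 and cyp71-3 overlapped, and every se-1 library was about double them, with a ratio of means of 2.13 and a difference of 1.01 ± 0.09 (limma adjusted p = 2.98e-06). EXPA13 rose by 0.38 ± 0.07, at 1.34 times Col-0. EXPA2 (AT5G05290) and EXPA12 (AT3G15370) were too low to be tested, with no library above 0.29 and 0.92 FPKM. EXPA12 was at 0 to 0.22 FPKM in Col-0, 0.58 to 0.64 in cyp71-3 seedlings and 0.58 to 0.92 in se-1, and when the filter was dropped it was called higher in both mutants.

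The 7 root markers summed to 109 to 113 FPKM in Col-0, 113 to 120 in cyp71-3 seedlings and 153 to 159 in se-1, and none was at 0 in every library. In cyp71-3, 2 of the 7 rose and 4 fell, and in se-1 5 rose and 1 fell. Each mutant thus had 85.7% called, where 63.3% of all genes tested were called in cyp71-3 and 50.2% in se-1. SCR fell in both, by 0.52 and 0.43 on the log2 scale. CASP1 and SHR fell in cyp71-3, by 0.76 and 0.27, and rose in se-1, by 0.25 and 0.18. IRT1, the iron transporter of the root epidermis, rose by 1.53 and 2.07, and WOX5, a marker of the quiescent centre, by 1.72 and 0.41. IRT1 was at 12.6, 38.2 and 56.0 FPKM in Col-0, cyp71-3 and se-1, so the higher sum in se-1 rests largely on IRT1. WOX5 was at 0.37 to 0.71 FPKM in Col-0, 3.72 to 4.53 in cyp71-3 seedlings and 0.85 to 1.22 in se-1, so it passed the filter mainly through cyp71-3, and its se-1 call was lost with a pseudocount of 5 (limma adjusted p = 0.055). Root expansins and XTH genes such as EXPA14, EXPA17 and XTH17 to XTH20 stand beside these changes, and the part of root tissue was not tested.

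**Figure D3:**
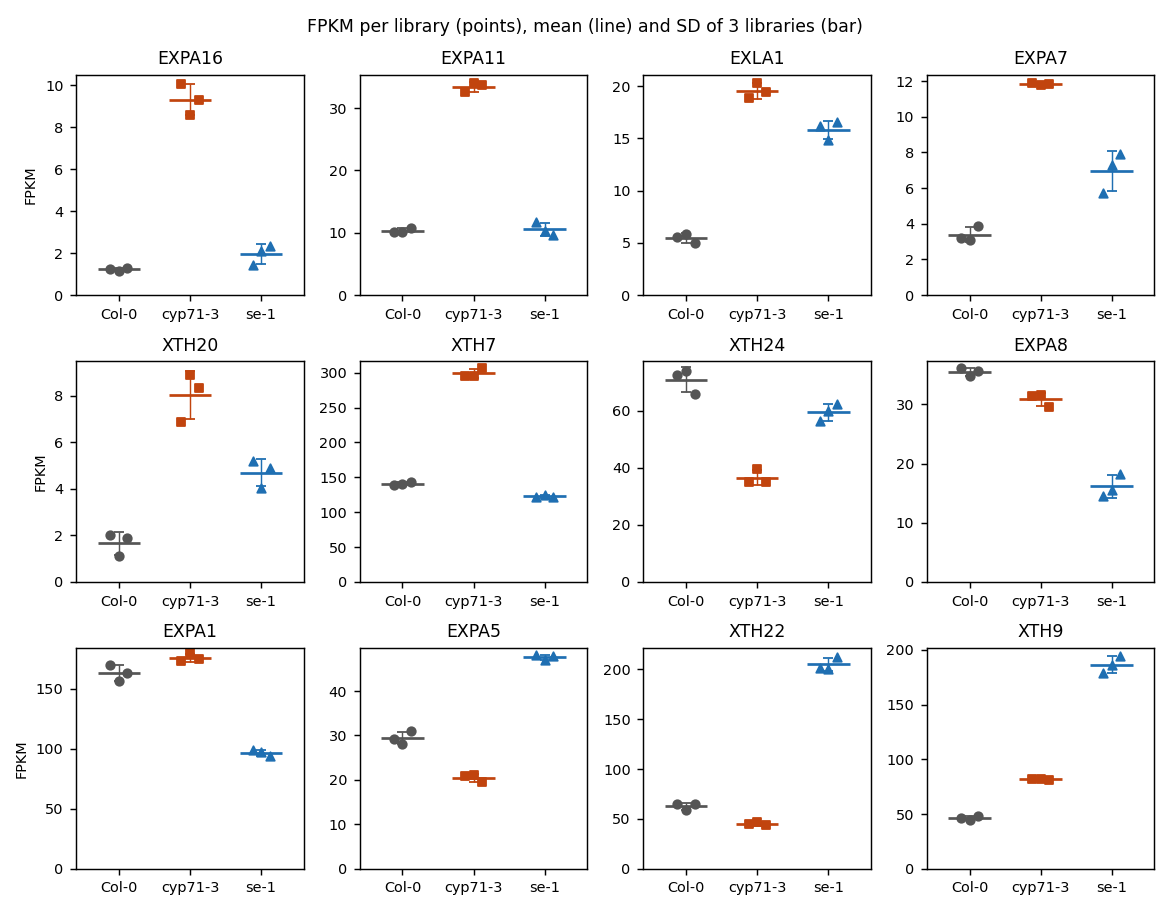
FPKM of 12 wall genes in each library (points), with the mean (line) and SD of 3 libraries (bar), by genotype, each panel on its own axis from 0. EXPA16 and EXPA11 are high in cyp71-3 alone, XTH22, XTH9 and EXPA5 are highest in se-1, and EXPA8 and EXPA1 are lowest in se-1.

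Of the β-expansins, the class that includes the pollen expansins of grasses, both genes tested were higher in cyp71-3. EXPB3 (AT4G28250) was at 57.1, 54.6 and 52.4 FPKM in Col-0, 79.4, 75.8 and 75.8 in cyp71-3 and 56.8, 53.5 and 53.3 in se-1. Only the cyp71-3 libraries stood apart, with a difference of 0.49 ± 0.04 (limma adjusted p = 2.05e-06), while se-1 and Col-0 overlapped. EXPB1 (AT2G20750) was at 10.3, 10.5 and 8.29 FPKM in Col-0, 16.4, 19.5 and 17.2 in cyp71-3 and 7.94, 7.68 and 7.89 in se-1. Its rise in cyp71-3 was 0.81 ± 0.09 (limma adjusted p = 9.18e-06) and its fall in se-1 was 0.27 ± 0.09 on the log2 scale (limma adjusted p = 0.0247). The fall was not called without Col-0 replicate 1, Col-0 replicate 2 or se-1 replicate 2, at limma adjusted p = 0.0878, 0.0951 and 0.0662. EXPB5 (AT3G60570) was listed at 0 in every library.

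Expansin-like genes, which carry the expansin domains but have no known wall-loosening activity, rose in both mutants in all 3 cases tested. EXLA1 (AT3G45970) was at 5.54, 5.84 and 4.94 FPKM in Col-0, 18.8, 20.3 and 19.4 in cyp71-3 and 16.1, 14.9 and 16.5 in se-1. All mutant libraries were well above Col-0, with differences of 1.67 ± 0.07 in cyp71-3 (limma adjusted p = 3.5e-09) and 1.39 ± 0.07 in se-1 (3.38e-08). EXLA1 overlaps AT3G45980 on the opposite strand by 22 bases, and that gene was listed at 152 to 192 FPKM, so reads from the overlap cannot be told apart. EXLA2 (AT4G38400) was at 6.53, 6.22 and 5.57 FPKM in Col-0, 14.2, 11.8 and 12.9 in cyp71-3 and 16.7, 18.5 and 19.6 in se-1. The order was reversed for this gene, with se-1 above cyp71-3 and no overlap of the 3 genotypes. Its differences from Col-0 were 0.97 ± 0.08 (limma adjusted p = 1.51e-06) and 1.44 ± 0.08 (1.29e-07).

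EXLB1 (AT4G17030) was at 13.3, 13.1 and 11.9 FPKM in Col-0, 28.3, 28.3 and 29.5 in cyp71-3 and 23.8, 24.5 and 22.9 in se-1. The groups did not overlap, and the differences were 1.11 ± 0.05 (limma adjusted p = 1.21e-08) and 0.84 ± 0.05 (2.11e-07). EXLA3 (AT3G45960), which lies 2012 bases from EXLA1 on chromosome 3, was too low to be tested, with 0.32 to 0.53 FPKM in Col-0, 0.78 to 1.14 in cyp71-3 seedlings and 0.47 to 0.6 in se-1. Without the filter it was called higher in cyp71-3. The coding sequences of EXLA1 and EXLA3 were 86.6% identical and those of EXLA1 and EXLA2 84.7%, so it is uncertain how fragments that fit more than one of them were assigned.

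Of the 16 XTH genes, 11 rose and 3 fell in cyp71-3, and 12 rose and 2 fell in se-1. In each mutant 87.5% were called, where 63.3% and 50.2% of all genes tested were called, 30.6% and 25.1% higher. XTH4 and XTH7 had the highest means over all libraries. XTH4 (AT2G06850), an XTH of expanding and of woody tissue, was at 216, 194 and 202 FPKM in Col-0, 259, 253 and 242 in cyp71-3 and 211, 218 and 225 in se-1. The cyp71-3 libraries were highest and se-1 overlapped Col-0, with differences of 0.30 ± 0.04 (limma adjusted p = 0.000115) and 0.09 ± 0.04 (0.101). With quantile normalization they were 0.45 and 0.16, both called (limma adjusted p = 1.9e-06 and 0.00539), and without Col-0 replicate 1 the se-1 difference was 0.13 and called (0.0283). XTH7 (AT4G37800) was at 138, 141 and 144 FPKM in Col-0, 295, 296 and 307 in cyp71-3 and 122, 124 and 121 in se-1. It was about doubled in each cyp71-3 library and lowest in se-1, with differences of 1.08 ± 0.03 (limma adjusted p = 2.76e-10) and -0.20 ± 0.03 (0.000254).

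XTH9 (AT4G03210), expressed in shoot apices and growing stems, had the largest rise of the 38 genes in se-1. It was at 46.8, 44.6 and 48.2 FPKM in Col-0, 82.4, 81.7 and 81.1 in cyp71-3 and 179, 187 and 194 in se-1. The genotypes formed 3 separate levels, with se-1 at 4.01 times and cyp71-3 at 1.76 times Col-0. The differences were 1.98 ± 0.04 in se-1 (limma adjusted p = 1.19e-10) and 0.80 ± 0.04 in cyp71-3 (1.93e-08). XTH22 (AT5G57560), also known as TCH4 and induced by touch, was at 64.7, 58.9 and 64.9 FPKM in Col-0, 44.4, 46.9 and 43.7 in cyp71-3 and 202, 201 and 213 in se-1. It was low in all cyp71-3 libraries and high in all se-1 libraries. Its difference was -0.47 ± 0.05 in cyp71-3 (limma adjusted p = 4.84e-06) and 1.69 ± 0.05 in se-1 (6.42e-10).

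The other touch genes did not follow XTH22 in cyp71-3. TCH2 and TCH3, which encode calmodulin-like calcium sensors, rose in both mutants. TCH3 was at 56.5 ± 2.93 FPKM (SD, n = 3) in Col-0, 132 ± 4.15 in cyp71-3 seedlings and 108 ± 2.57 in se-1. TCH2 was at 67.8 ± 2.78, 77.3 ± 1.66 and 129 ± 5.56 FPKM. The rise of TCH2 was 0.19 in cyp71-3 and 0.92 in se-1 on the log2 scale, and that of TCH3 was 1.21 and 0.92. With quantile normalization the rise of TCH2 in cyp71-3 was 0.29.

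XTH5 (AT5G13870) also had opposite directions, at 4.86, 4.28 and 4.35 FPKM in Col-0, 3.86, 3.82 and 3.74 in cyp71-3 and 8.61, 9.24 and 9.33 in se-1. The se-1 libraries were about double Col-0 and the cyp71-3 libraries slightly under it. The difference was 0.87 ± 0.07 in se-1 (limma adjusted p = 1.9e-06) and -0.19 ± 0.07 in cyp71-3 (0.0354). The cyp71-3 call was lost without Col-0 replicate 1 or any of the 3 cyp71-3 libraries, at limma adjusted p = 0.135, 0.0632, 0.0701 and 0.0833, and with a filter at a mean of 5 FPKM (0.0634). XTH8 (AT1G11545) was at 13.7 ± 0.61, 14.0 ± 0.18 and 28.4 ± 0.47 FPKM (SD, n = 3), with a rise of 1.00 ± 0.05 in se-1 and an uncalled difference of 0.03 ± 0.05 in cyp71-3. XTH15 (AT4G14130) rose in se-1 by 0.40 ± 0.09, and it overlaps AT4G14120 on the opposite strand over 382 bases, which was listed at 1.49 to 2.47 FPKM. The cyp71-3 difference of XTH15 was -0.11 ± 0.09 and was not called.

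XTH17, XTH18, XTH19, XTH20 and XTH24 include near copies with different patterns. XTH17 to XTH20 are known as XTH genes of growing roots, and XTH24, also known as MERI5, was first found in meristems. The coding sequences of XTH17 and XTH18 were 92.2% identical, those of XTH18 and XTH19 89.2%, and those of XTH17 and XTH19 88.6%. The stretch around the codons of the conserved catalytic site is shown for XTH18 and XTH19 because the pair differed in response while fragments from such a stretch could come from either. It is 150 bases of coding sequence with 8 differences, at chr4:14826449-14826598 for XTH18 and chr4:14829441-14829590 for XTH19 on the minus strand of RefSeq TAIR10.1, written 5′ to 3′ with the differing bases in capitals.
XTH18: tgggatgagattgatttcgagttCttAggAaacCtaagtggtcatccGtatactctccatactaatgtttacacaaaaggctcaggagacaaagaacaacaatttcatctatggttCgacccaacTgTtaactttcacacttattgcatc
XTH19: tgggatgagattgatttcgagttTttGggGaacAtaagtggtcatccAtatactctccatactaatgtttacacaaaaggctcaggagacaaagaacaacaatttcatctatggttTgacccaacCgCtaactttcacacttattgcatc
The longest run of identical bases in the aligned coding sequences of the pair was 68, so the split of fragments between them is uncertain.

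XTH19 (AT4G30290) was at 11.7, 9.65 and 10.4 FPKM in Col-0, 29.1, 32.0 and 30.6 in cyp71-3 and 25.5, 27.3 and 29.6 in se-1. Both mutants were well above Col-0 and overlapped each other. The differences were 1.45 ± 0.07 (limma adjusted p = 2.2e-08) and 1.30 ± 0.07 (1.05e-07). XTH18 (AT4G30280), 1500 bases away on the same strand, rose less, from 8.84 ± 0.69 FPKM (SD, n = 3) in Col-0 to 12.1 ± 0.65 in cyp71-3 and 12.8 ± 0.40 in se-1. XTH17 (AT1G65310), on chromosome 1, was at 12.1 ± 0.92, 16.2 ± 1.87 and 17.4 ± 1.68 FPKM, a rise of 0.39 ± 0.09 and 0.50 ± 0.09. XTH20 (AT5G48070) was at 2.00, 1.10 and 1.87 FPKM in Col-0, 6.85, 8.87 and 8.34 in cyp71-3 and 5.17, 4.04 and 4.87 in se-1. The 3 genotypes did not overlap, and its differences were 1.77 ± 0.14 (limma adjusted p = 9.03e-07) and 1.11 ± 0.14 (6.74e-05).

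XTH24 (AT4G30270), 5161 bases from XTH18 on the other side from XTH19, fell instead. It was at 72.6, 74.1 and 65.8 FPKM in Col-0, 35.2, 39.5 and 34.9 in cyp71-3 and 56.3, 59.8 and 62.3 in se-1. Every cyp71-3 library was far under Col-0, and se-1 lay between without overlap. Its difference of -0.94 ± 0.06 (limma adjusted p = 1.65e-07) was the largest fall of the 38 genes in cyp71-3, and in se-1 the difference was -0.25 ± 0.06 (0.00587). The 3 genes lie side by side on the minus strand of chromosome 4, and XTH24 moved opposite to the other two.

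**Figure D4:**
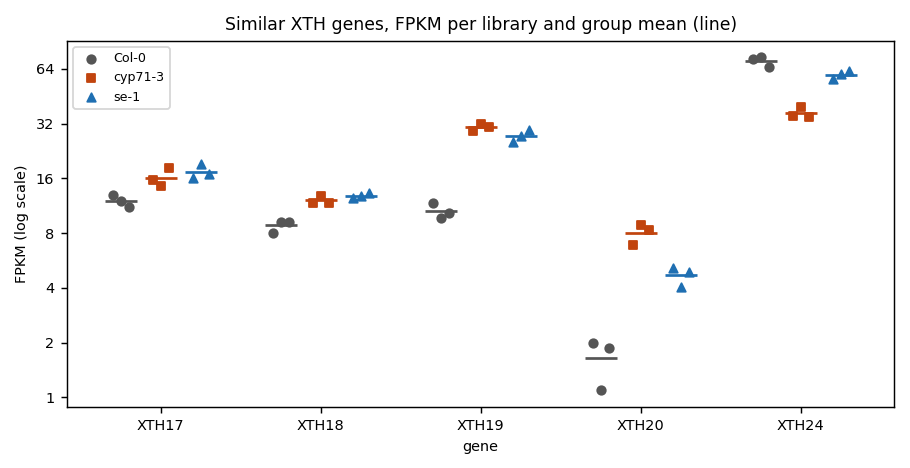
FPKM per library (points, log axis) and group mean (line) of XTH17, XTH18, XTH19, XTH20 and XTH24 by genotype. XTH19 and XTH20 rise most in the mutants, XTH17 and XTH18 rise by less, and XTH24 is lowest in cyp71-3.

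XTH33 (AT1G10550), which is predicted to be held at the cell membrane, was at 0.52, 1.26 and 0.67 FPKM in Col-0, 5.40, 4.74 and 5.03 in cyp71-3 and 2.34, 1.63 and 2.64 in se-1. The mutants lay above Col-0 and apart from each other, and the differences were 1.76 ± 0.16 (limma adjusted p = 2.54e-06) and 0.83 ± 0.16 (0.00132). Its Col-0 mean was 0.82 FPKM. XTH33 passed the filter through the mutants, where it is high, so its calls carry no weight beyond these values. XTH31 (AT3G44990), an enzyme with xyloglucan hydrolase activity, was the third most abundant rising XTH in cyp71-3, at 93.1 ± 1.08, 159 ± 2.80 and 113 ± 3.16 FPKM (SD, n = 3). XTH16 (AT3G23730) was 1.71 times Col-0 in cyp71-3 and 1.36 times in se-1. XTH23 (AT4G25810) was at 1.94 times the Col-0 mean in cyp71-3, while its se-1 libraries overlapped Col-0.

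The patterns over both mutants can be set beside those of all genes tested, with the reminder that both comparisons use the same Col-0 libraries. The wall genes were chosen with earlier results known, so the shares of all genes are no test. Of the 38 genes, 18, XTH33 among them, were higher in both mutants, a pattern of 12.6% of all genes tested. Lower in both were 2, EXPA8 and XTH24, against 14.8%. Higher in cyp71-3 and lower in se-1 were 3, EXPA1, EXPB1 and XTH7, against 3.54%, and lower in cyp71-3 and higher in se-1 were 3, EXPA5, XTH5 and XTH22, against 5.21%. A further 8 were higher in cyp71-3 and not called in se-1, against 14.5% of all genes tested, and 4 were higher in se-1 and not called in cyp71-3, against 7.29%. Of the 6 genes with opposite directions, EXPA1, EXPB1 and XTH5 each had 1 call that was lost when single libraries were left out.

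The mutants were compared directly to see which wall genes differed between them. Of the 38 genes, 21 were higher in cyp71-3 than in se-1, 10 were lower and 7 were not called, where 62.2% of all genes tested were called, 30.0% higher and 32.2% lower. Differences of at least 1 on the log2 scale were 6 higher and 5 lower, against 3.28% and 4.07% of all genes tested. The median was 0.24, and that of all genes tested -0.001. Here too the values of all genes are a background and no test. Expansins were mostly higher in cyp71-3, with 14 of 22 higher and 4 lower, while XTH genes were split, with 7 of 16 higher and 6 lower.

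The genes highest in cyp71-3 relative to se-1 were EXPA16 with a log2 difference of 1.81 ± 0.12 (limma adjusted p = 1.75e-07), EXPA11 with 1.58 ± 0.07 (4.65e-09), EXPA17 with 1.34 ± 0.10 (4.1e-07) and XTH7 with 1.28 ± 0.03 (6.96e-11). At the other end was XTH22 at -2.16 ± 0.05 (limma adjusted p = 2.67e-11), a level 4.55 times as high in se-1. XTH9 and EXPA5 both stood at -1.18, with SE 0.04 and 0.05, and EXPA14 at -1.10 ± 0.09. In each of these 8 genes the cyp71-3 and se-1 libraries did not overlap. The genes were picked by the size of this difference, so the lack of overlap adds no support. Genes that rose in both mutants by amounts not told apart by the test were EXPA4, EXPA6, EXPA10, EXPA18, XTH17, XTH18 and XTH19, with differences between mutants of -0.12 to 0.15. A call was gained by EXPA10 and XTH19 with quantile normalization (limma adjusted p = 0.0236 and 0.0173), by EXPA4 with library weights (0.0463), by EXPA10 without cyp71-3 replicate 1 (0.0449) and by XTH19 without se-1 replicate 3 (0.0428). EXPA3, at 0.13 ± 0.04, lost its call without cyp71-3 replicate 1, cyp71-3 replicate 3 or se-1 replicate 2, at limma adjusted p = 0.0858, 0.0572 and 0.0607, and was at 0.21 with quantile normalization (0.000845).

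**Figure D5:**
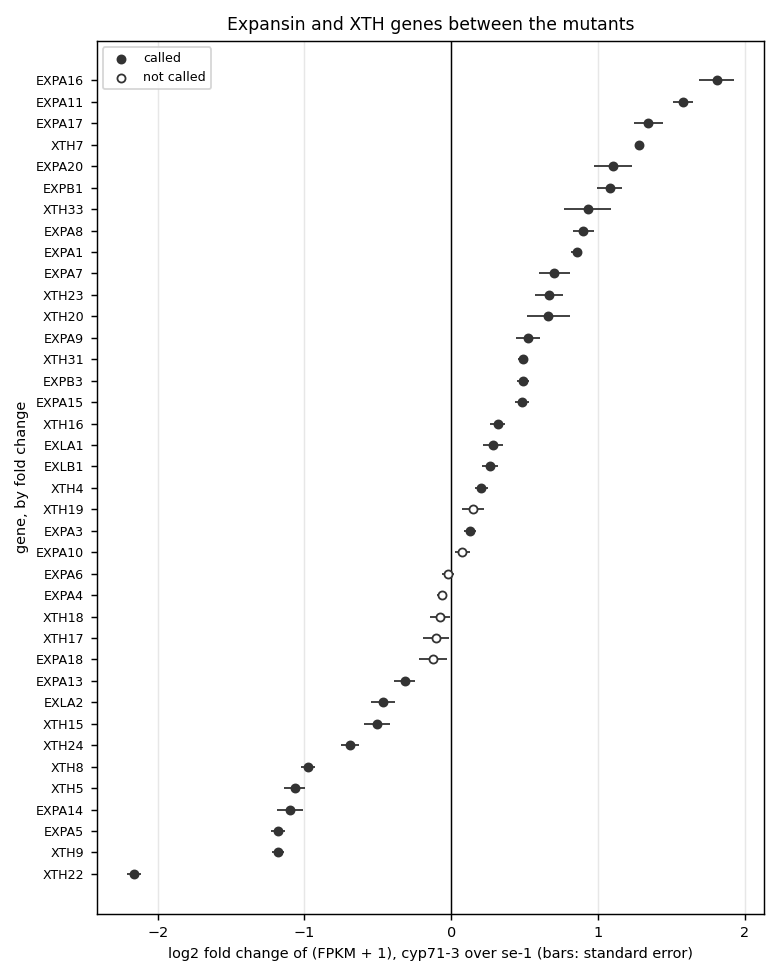
Log2 fold change of FPKM + 1 of each of the 38 genes in cyp71-3 over se-1, sorted, with bars for the standard error and open symbols for genes not called. XTH22 is at -2.16 at one end and EXPA16 at 1.81 at the other.

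Of the other members of the same families, the expansins were mostly low and some XTH genes were abundant. Of 9 other expansin genes with values, EXPB2 alone passed the filter, at 0.0733 ± 0.0058 FPKM (SD, n = 3) in Col-0, 4.09 ± 1.16 in cyp71-3 seedlings and 2.91 ± 0.38 in se-1, and it was called higher in both. EXPB2 passed the filter through the mutants, where it is high, so its calls carry no weight beyond these values. Of 17 other XTH genes, 10 were tested: 6 rose and 3 fell in cyp71-3, and 7 rose and 1 fell in se-1. Of the 10, 90% and 80% were called, where 63.3% and 50.2% of all genes tested were called. Col-0 means were 141 FPKM for XTH27, 91.6 for XTH6, 56.7 for XTH32 and 36.3 for XTH28. XTH27 and XTH6 fell in cyp71-3, by 0.38 and 1.26 on the log2 scale, and rose in se-1. XTH32 and XTH28 rose in cyp71-3, by 0.36 and 0.55. XTH14, an XTH of roots and root hairs, was at 4.99 ± 0.81, 13.9 ± 0.61 and 19.6 ± 1.45 FPKM, and XTH12 at 1.16 ± 0.33, 3.35 ± 1.14 and 4.36 ± 0.66, both called higher in both mutants. XTH12 is a near copy of XTH13, with 89.7% identical coding sequence, so its value is uncertain. XTH12, XTH13, XTH25 and XTH22 lie in a row on chromosome 5, with gaps of 1097, 686 and 565 bases, and XTH12 and XTH13 rose in cyp71-3 while XTH22 fell.

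Genes that make xyloglucan, the substrate of XTH enzymes, were mixed, while the 3 listed genes that trim it rose. Of 14 xyloglucan synthesis genes, 4 rose and 4 fell in cyp71-3, and 6 rose and 1 fell in se-1. The shares called were 57.1% and 50%, where 63.3% and 50.2% of all genes tested were called. The rises include CSLC12, at 0.90, 1.46 and 2.29 FPKM in Col-0, cyp71-3 and se-1. CSLC12 passed the filter through the mutants, where it is high, so its calls carry no weight beyond these values. The xylosyltransferase gene XXT1 was at 8.84 ± 0.83, 8.14 ± 0.27 and 18.0 ± 0.44 FPKM (SD, n = 3), called higher in se-1 and not called in cyp71-3, and the xyloglucan acetyltransferase gene AXY4 was at 20.1 ± 0.97, 14.2 ± 0.19 and 8.80 ± 0.83, lower in both. All 3 trimming genes rose in both mutants: the β-galactosidase gene BGAL10 was at 4.21 ± 0.44, 9.95 ± 0.30 and 6.53 ± 0.50 FPKM, the fucosidase gene AXY8 at 14.5 ± 0.49, 22.0 ± 0.63 and 18.0 ± 1.33, and XYL1 rose by 0.26 and 0.21 on the log2 scale.

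Few cellulose genes were called higher. Of 8 genes of primary wall cellulose synthesis, 1 rose and 3 fell in cyp71-3, and 1 rose and 2 fell in se-1. These are 50% and 37.5% called, where 63.3% and 50.2% of all genes tested were called. Of all genes tested, 30.6% were higher and 32.7% lower in cyp71-3, and 25.1% higher and 25.1% lower in se-1. The synthase subunit gene CESA5 fell by 0.47 and 0.26 on the log2 scale, and CESA2 fell by 0.43 and 0.30. The 3 synthase genes of secondary walls, CESA4, CESA7 and CESA8, all fell in cyp71-3, by 0.34 to 0.37, and were not called in se-1. CESA8 was called higher in se-1 with a pseudocount of 5, in a fit of 2 groups, and without cyp71-3 replicate 1 or cyp71-3 replicate 3, at limma adjusted p of 0.028 to 0.0496. The 4 xylem markers summed to 75.7 to 79.3 FPKM in Col-0, 74.1 to 78.7 in cyp71-3 seedlings and 106 to 113 in se-1. None of them was called in cyp71-3, although VND7 was without cyp71-3 replicate 3 (limma adjusted p = 0.0346), and 3 rose in se-1, VND7 by 0.59 and XCP1 by 0.58, and none was at 0 in every library.

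Regulators of growth were mixed. Of 14 genes, 5 rose and 7 fell in cyp71-3, and 2 rose and 4 fell in se-1. This makes 85.7% and 42.9% called, where 63.3% and 50.2% of all genes tested were called. BR6OX2, which makes brassinolide, was at 13.7 ± 0.44 FPKM (SD, n = 3) in Col-0, 17.3 ± 0.91 in cyp71-3 seedlings and 7.08 ± 1.06 in se-1. BEE1, a brassinosteroid-induced transcription factor gene, was at 13.7 ± 0.36, 8.60 ± 0.48 and 24.7 ± 1.02, so it was lower in cyp71-3 and higher in se-1, as EXPA5 was. The 4 leaf markers summed to 31381 to 32189 FPKM in Col-0, 25603 to 26114 in cyp71-3 seedlings and 27764 to 30924 in se-1. In each mutant 3 of 4 fell, which is 75% called, beside the same shares of all genes tested. RCA fell by 0.63 and 0.49 on the log2 scale and CAB2 by 0.53 and 0.23. With quantile normalization the se-1 differences were 0.00 and 0.0168, not called, and the cyp71-3 differences -0.40 and -0.28, both called. That setting gives all libraries the same values in rank order, so it shows a change of these abundant genes only where their rank changes. None of the leaf markers was at 0 in every library, and the part of leaf tissue in the wall gene levels was not tested.

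Short motifs in the 250 bases before the annotated start were counted on both strands. The G-box core CACGTG, bound by PIF factors among others, was in 0 of the 42 windows, against 6.49% of all 27443. CGTGTG, a brassinosteroid response element, was in 6 of the 42, those of EXPA1, EXPA2, EXPA6, EXLA2, XTH8 and XTH23, which is 14.3% against 5.37%. TGTCTC, an auxin response element, was in 4, those of EXPA5, EXPA6, EXPA7 and EXPA10, or 9.52% against 10.9%. TATAAA was in 20, or 47.6% against 47.3%. Letters that are absent from this window say nothing about the factor.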

How the data were processed

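Per the labels' protocols, mRNA was enriched on capture beads from TRIzol extracts of whole seedlings, then fragmented and turned into adapter-ligated cDNA, which was amplified for Illumina sequencing. The authors deposited FPKM values per gene with 2 decimals, 1 table per library. The submitters' processing notes name the TAIR10 build, Cuffdiff and Cuffnorm, STAR 2.7.2b and Trim Galore 0.6.7, per the labels. Their roles, the gene annotation, how libraries were scaled and whether strand was used in counting are not given in any source used here. Because FPKM is relative to transcript length and library total, changes in abundant genes shift the others, and near copies may share fragments. FPKM are not counts, so no count model was run.

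Libraries were grouped by the genotype in the labels. In limma 3.58.1 (R 4.3.3), log2(FPKM + 1) of the 19180 genes whose mean over the 9 libraries was at least 1 FPKM was modelled by genotype, with moderated variances, an intensity trend and 6 residual degrees of freedom. Genes with a two-sided Benjamini-Hochberg adjusted p under 0.05, over all genes tested, were called. The procedure was tested on simulated data. The members, the other lists and the markers were chosen with earlier results of these data known. Per library values were given for the 6 largest rises and falls in each mutant, 4 each way between the mutants and the 2 most abundant genes of each subfamily, and of each other list the 2 called genes with the largest change were named. COBL9, LRX1, RSL4, RHD6, XYL1, XTH13, CESA7, AT4G38215, AT4G14120 and AT3G45980 were named beside the rule, after their values were seen. So were RSL2, RHD2, SCR, SHR, CASP1, SLAC1, CSLC12, XTH27, XTH28 and XTH32. Sequences, gene positions and overlaps came from the RefSeq TAIR10.1 assembly, matched by gene identifier for 32538 of 32823 genes and for all 42 members. Motif and coding sequence comparisons used Biopython 1.88, and summaries and figures Python 3.11.15, pandas 2.3.3, numpy 2.4.6 and matplotlib 3.10.9. Alternatives were other pseudocounts, filters, scalings and variance settings, library weights, a fit of 2 groups, a fold change threshold, the replicate number as a block and leaving out each library.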

Additional observations from a re-analysis of the deposited data

How the results depend on the processing

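No called wall gene changed direction under any alternative run. Depth is known only as a relative value, so no counting interval can be given, and low genes such as XTH33 and EXPA16 in Col-0 rest on few fragments. Against a log2 threshold of 0.5, the wall genes called were 20 (19 higher, 1 lower) in cyp71-3, 16 (14 higher, 2 lower) in se-1 and 15 (8 higher) between the mutants, and the genes called of the other wall lists were 6, 7 and 4, in place of 28, 22 and 24. That test asks for a larger change, and it called 13.1%, 6.21% and 12.9% of all genes tested. The median difference of the wall genes in cyp71-3 was 0.57 with a pseudocount of 5, 0.64 without a filter, 0.61 with a filter at 5 FPKM and 0.75 with quantile normalization. In se-1 the median was 0.30 with a pseudocount of 5. Between the mutants the median was 0.22 with a pseudocount of 5, 0.21 without a filter, 0.15 with a filter at 5 FPKM, 0.30 with quantile normalization and 0.22 with library weights. A pseudocount of 5 shrinks low genes by construction, EXPA16 in cyp71-3 from 2.21 to 1.20. The cause of the other shifts was not tested. Leaving out 1 library at a time gave 3 to 5 lower wall genes in cyp71-3, the losses being among EXPA8 and XTH5, and medians of 0.68 to 0.73 in cyp71-3, 0.39 to 0.50 in se-1 and 0.22 to 0.24 between the mutants. Under quantile normalization, which sets values by rank, the leaf markers CAB2 and RCA in se-1 were at 0.0168 and 0.00. Deviations of libraries with the same replicate number had correlations of -0.137 to 0.043 over all genes tested, against -0.082 to 0.152 for other numbers. With 3 libraries per genotype these values cannot decide whether the numbers mark a shared batch, and the labels do not say. With a replicate block the wall genes called were 33, 29 and 31, where XTH5 in cyp71-3 and EXPA15 in se-1 were not called and CESA8 in se-1 was.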

Other observations

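XTH6, another XTH gene, was at 91.6 ± 2.74 FPKM (SD, n = 3) in Col-0, 37.6 ± 0.65 in cyp71-3 seedlings and 143.9 ± 2.29 in se-1, and was named after its values were seen. It fell by 1.26 on the log2 scale in cyp71-3 and rose by 0.65 in se-1 (limma adjusted p = 1.99e-10 and 7.15e-08), the directions seen for XTH22, XTH5 and EXPA5. Among the 38 wall genes tested, the median coefficient of variation between libraries of a genotype was 5.61% in Col-0, 3.87% in cyp71-3, against 4.34% in se-1.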
